A study of Mus musculus with 6 samples.

Results

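The Myc and Max network is a family of transcription factors of the basic helix-loop-helix leucine zipper class. The 10 genes described here were chosen by name: the Myc genes Myc, Mycn and Mycl, their common partner Max, the Max-binding repressors Mxd1, Mxd3, Mxd4, Mxi1 and Mnt, and Mlx, the partner of a parallel branch. They stood among 34741 genes or unnamed transcripts on the array, of which 18552 could be tested. Gene expression was measured in the livers of male C3H/HeN mice of 74 to 75 weeks of age, F2 offspring of the control group of a gestational arsenic project, kept on standard diet and tap water. Normal liver tissue (n = 3) was compared with macroscopic liver tumors that carried a Ha-ras mutation (n = 3) and had arisen without treatment. The labels do not tie the samples to animals, so p-values measure only the spread between these samples.

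Myc proteins bind DNA as a dimer with Max, most strongly at the E-box CACGTG, and raise transcription of genes for ribosome assembly, nucleotide synthesis and cell division. Mxd proteins and Mnt compete for Max at the same sites and bring in the Sin3 and histone deacetylase complex, which lowers transcription. Mlx pairs with Mlxip or Mlxipl, the glucose-responsive factors of the liver, and also with Mxd1, Mxd4 and Mnt. In adult liver Myc is low and is induced when hepatocytes re-enter the cell cycle, while Mycn and Mycl are better known from embryonic tissue and tumors.

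Each of the 6 samples had its own array with 1 dye. On an array, 44.7% to 48.9% of the spots were well above background, and precision is limited by there being 6 arrays. Expression values below are the processed signal divided by the 75th percentile of the array, and fold changes are differences of their log2, tumor minus normal liver. All normal livers were on 1 slide and all tumors on a second, and the effects of slide and of tissue cannot be told apart. Local background, as the median over spots, came to 42 to 45 intensity units for the normal livers and 22 to 23 for the tumors. The log2 values correlated at 0.980 to 0.992 between arrays of a group and at 0.914 to 0.950 between groups. The liver origin of the samples, not the difference between tumor and normal liver, was checked against 10 hepatocyte markers. All 10 were well above background on every array. Their summed expression values were 11576, 11166 and 10508 in the normal livers and 10911, 11021 and 10482 in the tumors, with albumin (Alb) the brightest probe. Such sums follow the brightest probes of a list and are not amounts of RNA, since different probes cannot be set against each other.

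Among the Myc genes, Mycn and Mycl were higher in every tumor than in every normal liver, and no difference was detected for Myc itself. Of the repressors, Mxd3 was higher and Mxd4 lower in the tumors. Max, Mnt, Mlx and Mxd1 did not pass the test, and Mxi1 was too dim to test. In all, 9 of the 10 genes were tested and 4 were called by limma at an adjusted p under 0.05, 3 of them higher and 1 lower, where 34.2% of all genes tested were called, 13.1% higher and 21.0% lower. The groups did not overlap for 6 of the 9, against 51.8% of all genes tested. The 3 higher genes, Mycn, Mycl and Mxd3, were well above background on 1, 2 and 0 normal liver arrays and passed the filter on dim probes through the tumors, so nothing is read from the count against these shares. With only probes well above background on all 6 arrays, 6 genes were tested and 2 called, Mxd1 higher and Mxd4 lower. For a gene taken alone, an exact two-sided permutation test of 3 against 3 arrays cannot fall below p = 0.1. In whole tissue, fewer cells of a type and less RNA per cell cannot be told apart.

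**Figure D1:**
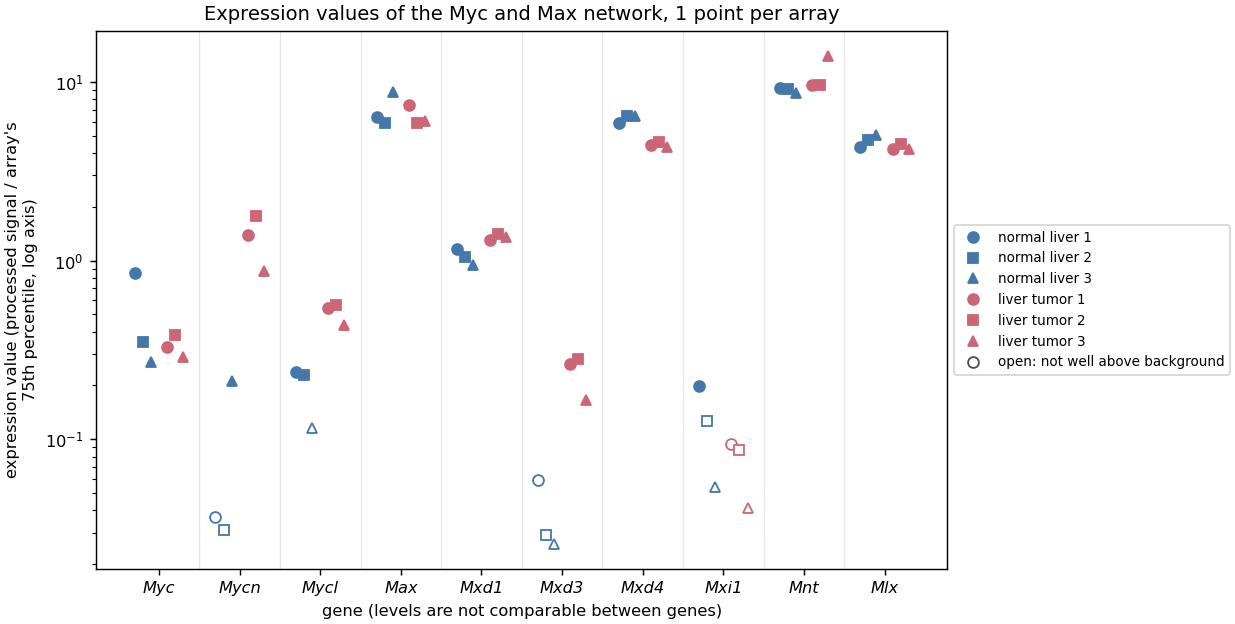
Expression value (processed signal over the 75th percentile of the array, log axis) of the 10 network genes, with 1 point per array for the normal livers and liver tumors and open symbols where the probe was not well above background. Mycn, Mycl and Mxd3 lie higher in all 3 tumors, Mxd4 lies lower, and Myc stands out in normal liver 1.

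The sequences upstream of the called genes are shown with that of Max, since these proteins read a short word of DNA. RefSeq windows on GRCm38.p6, from 250 bases before to 50 bases after a transcript start, matched 9 of the 10 genes, all but Myc, with 11 windows. The E-box CACGTG, which reads the same on both strands, was searched together with words bound by the E2F cell cycle factors (TTTCGCGC, TTTGGCGC, TTTCCCGC and TTTGCCGC, on both strands). The E-box was in 4 of the 11 windows, 36.4%, against 7.15% of all 32851 windows. Its first base lay at -3 from the transcript start in Max, at -40 in Mlx, at -123 in Mnt and at -219 in Mxd4. The Mycn window held TTTGGCGC at -183 and -168 and, on the other strand, TTTCGCGC at -179, where it overlaps the first of them. Of all windows, 0.514% held TTTGGCGC and 0.323% held TTTCGCGC, and the windows of the other network genes held none of the E2F words. The windows are chr12:12941787-12942086 for Mycn (minus strand), chr4:122995681-122995980 for Mycl (plus), chr13:55329682-55329981 for Mxd3 (minus), chr5:34187661-34187960 for Mxd4 (minus) and chr12:76962199-76962498 for Max (minus). They run 5′ to 3′ on the strand of the gene, with capitals for the E-box and E2F words. A match describes letters, not binding.
Mycn: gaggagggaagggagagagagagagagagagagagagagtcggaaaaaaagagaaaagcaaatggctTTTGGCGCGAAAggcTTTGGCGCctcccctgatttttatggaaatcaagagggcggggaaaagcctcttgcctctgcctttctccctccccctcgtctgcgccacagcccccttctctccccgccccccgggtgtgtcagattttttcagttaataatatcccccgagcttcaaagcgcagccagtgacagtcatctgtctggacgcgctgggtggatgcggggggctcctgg
Mycl: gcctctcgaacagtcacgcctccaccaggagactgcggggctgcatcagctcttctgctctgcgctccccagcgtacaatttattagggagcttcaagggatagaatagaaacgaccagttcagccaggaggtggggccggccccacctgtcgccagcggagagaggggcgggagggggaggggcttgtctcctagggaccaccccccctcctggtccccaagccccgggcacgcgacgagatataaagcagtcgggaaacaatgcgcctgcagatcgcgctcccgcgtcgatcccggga
Mxd3: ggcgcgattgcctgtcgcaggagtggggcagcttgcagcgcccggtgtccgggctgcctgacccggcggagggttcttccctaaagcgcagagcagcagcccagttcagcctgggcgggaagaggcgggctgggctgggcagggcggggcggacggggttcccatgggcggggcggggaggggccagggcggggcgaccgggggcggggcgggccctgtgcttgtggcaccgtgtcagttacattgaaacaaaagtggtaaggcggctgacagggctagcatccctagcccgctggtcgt
Mxd4: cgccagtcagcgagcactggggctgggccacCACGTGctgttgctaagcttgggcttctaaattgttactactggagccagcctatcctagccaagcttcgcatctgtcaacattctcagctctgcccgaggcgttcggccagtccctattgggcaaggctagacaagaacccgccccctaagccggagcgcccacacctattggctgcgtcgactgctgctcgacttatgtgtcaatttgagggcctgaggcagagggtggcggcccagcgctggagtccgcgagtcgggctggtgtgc
Max: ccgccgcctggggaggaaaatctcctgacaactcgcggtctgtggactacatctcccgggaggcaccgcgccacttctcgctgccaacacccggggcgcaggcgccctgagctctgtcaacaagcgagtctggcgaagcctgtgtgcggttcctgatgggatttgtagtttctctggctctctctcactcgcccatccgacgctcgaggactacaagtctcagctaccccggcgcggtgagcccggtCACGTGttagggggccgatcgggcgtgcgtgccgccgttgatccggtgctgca

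Myc, the founding member, had expression values of 0.851, 0.352 and 0.271 in the normal livers and 0.330, 0.382 and 0.288 in the tumors. Normal liver 1 was the highest of the 6 arrays, and the other arrays of both groups overlapped. The log2 fold change was -0.39 (standard error 0.41, adjusted p = 0.509 by limma, 95% interval -1.38 to 0.60). It turned to 0.10 without normal liver 1 and was -0.73 without normal liver 3, so no direction can be read for Myc. Its probe was well above background on all 6 arrays.

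Mycn, the paralog of embryonic and neural tissue, had expression values of 0.0366, 0.0312 and 0.211 in the normal livers and 1.38, 1.78 and 0.874 in the tumors. Every tumor lay above every normal liver, and among the normal livers only the third was well above background. Mycn rose by a log2 fold change of 4.38 (standard error 0.74, adjusted p = 0.00697 by limma, 95% interval 2.61 to 6.14). The size of this rise depends on how background is handled: after normexp correction with an offset of 50 it was 1.72, still past the threshold. The call was also kept without each array in turn, at 3.88 to 5.26.

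Mycl, the third Myc gene, had values of 0.239, 0.229 and 0.115 in the normal livers and 0.542, 0.562 and 0.435 in the tumors. All tumors lay above all normal livers, and normal liver 3 was not well above background. Mycl rose by a log2 fold change of 1.46 (standard error 0.30, adjusted p = 0.0128 by limma, 95% interval 0.75 to 2.18). With normexp correction the rise was 0.54, also past the threshold, so its size too depends on how background is handled.

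Max, the partner of all Myc and Mxd proteins, had values of 6.36, 5.93 and 8.82 in the normal livers and 7.38, 5.92 and 6.03 in the tumors. Normal liver 3 was the highest, and the groups overlapped. The log2 fold change was -0.11 (standard error 0.19, adjusted p = 0.679 by limma, 95% interval -0.56 to 0.33). Its sign turned with the arrays scaled to their spike-in controls (0.04) and without normal liver 3 (0.06).

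Among the repressors, Mxd3 and Mxd4 were called in opposite directions. Mxd3, which is known from dividing progenitor cells, had values of 0.0591, 0.0290 and 0.0258 in the normal livers and 0.263, 0.283 and 0.166 in the tumors. It was well above background on every tumor array and on no normal liver array, so the fold is a bound. The tumors exceeded the normal livers at least 1.78-fold for Mxd3, with each normal liver array taken at its dimmest signal that still counted as above background. The adjusted p was 0.00338 by limma. After normexp correction the log2 fold change of Mxd3 was 0.49 (adjusted p = 0.0401 by limma). That is less than the bound, which is 0.83 on the log2 scale, so the size depends on how background is handled.

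Mxd4, a repressor of resting and differentiated cells, had values of 5.90, 6.48 and 6.43 in the normal livers and 4.42, 4.60 and 4.30 in the tumors. The groups were apart and each varied little. Mxd4 fell by 0.50 on the log2 scale (standard error 0.10, adjusted p = 0.0137 by limma), which is 1.41-fold. A second probe read 2.09, 2.48 and 2.18 in the normal livers and 1.64, 1.83 and 1.55 in the tumors, and fell by 0.43 (adjusted p = 0.0400). The call for Mxd4 was lost with scaling to the spike-in controls (-0.34, adjusted p = 0.384), with no filter on dim probes (adjusted p = 0.0757) and without normal liver 2 (-0.47, adjusted p = 0.0571).

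Mxd1, a repressor induced as cells leave the cell cycle, lay close to the threshold. Its values were 1.17, 1.04 and 0.946 in the normal livers and 1.30, 1.41 and 1.36 in the tumors, with the groups apart. The log2 fold change was 0.37 (standard error 0.12, adjusted p = 0.0549 by limma, 95% interval 0.08 to 0.66). A second probe read 1.02, 0.930 and 0.785 in the normal livers and 1.15, 1.28 and 1.23 in the tumors. It gave 0.43 and passed the test (adjusted p = 0.0472), so the call for Mxd1 depends on the probe.

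Mnt, the broadly expressed repressor of the family, had values of 9.21, 9.15 and 8.62 in the normal livers and 9.66, 9.56 and 14 in the tumors. The groups did not overlap, but tumors 1 and 2 lay just above the normal livers and tumor 3 far above. The log2 fold change was 0.28 (standard error 0.17, adjusted p = 0.256 by limma, 95% interval -0.14 to 0.69), and 0.10 without tumor 3. Mxi1, a repressor close to the Mxd proteins, had values of 0.199, 0.127 and 0.0543 in the normal livers and 0.0940, 0.0867 and 0.0412 in the tumors. It was well above background in normal liver 1 alone, and no fold is given.

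Mlx, the hub of the parallel branch, had values of 4.34, 4.71 and 5.07 in the normal livers and 4.23, 4.49 and 4.19 in the tumors, with overlap. The log2 fold change was -0.13 (standard error 0.11, adjusted p = 0.413 by limma, 95% interval -0.39 to 0.14). It turned to 0.03 with spike-in scaling.

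**Figure D2:**
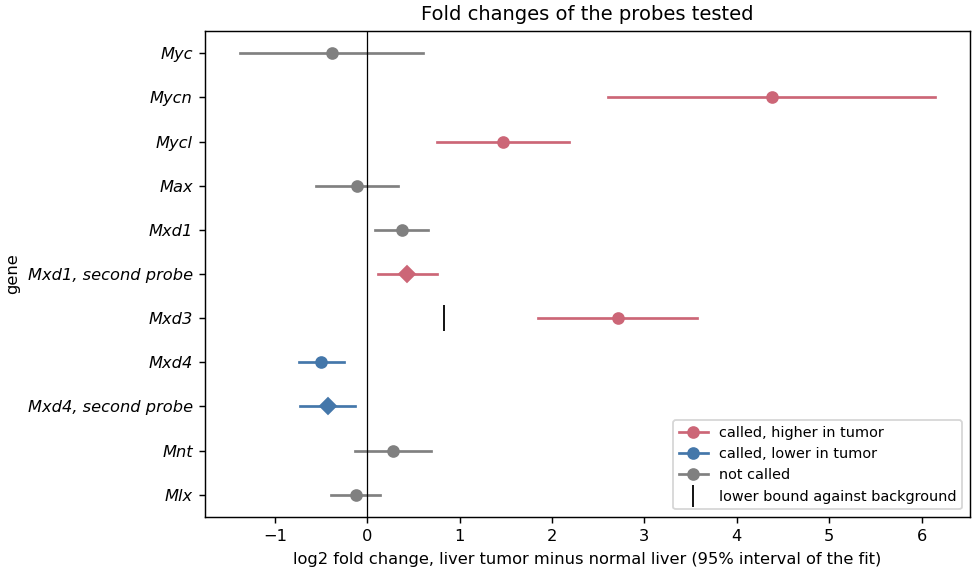
Log2 fold change (tumor minus normal liver) of the 11 network probes tested, with bars for the 95% interval of the fit, diamonds for second probes and a black tick for the lower bound of Mxd3, whose fitted point rests on background signals in the normal livers. Mycn and Mycl were well above background on 1 and 2 normal liver arrays, so their points rest in part on such signals. Mycn, Mycl and Mxd3 lie to the right of 0 and both Mxd4 probes to the left, while the interval of Myc spans -1.38 to 0.60.

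Of 6 other proteins of the network, 5 were tested, with 1 higher and 2 lower, 20% and 40% against 13.1% and 21.0% of all genes tested. Bmyc, a Myc relative that lacks the DNA-binding region, had values of 2.36, 1.99 and 2.02 in the normal livers and 0.215, 0.581 and 0.950 in the tumors. Every tumor lay below every normal liver, with tumor 1 the lowest, and Bmyc fell by 2.11 on the log2 scale (standard error 0.51, adjusted p = 0.0220 by limma). That call was lost without any 1 of the normal livers (adjusted p = 0.0689, 0.0611 and 0.0591 without normal liver 1, 2 and 3). With no filter on dim probes the call for Bmyc was also lost (adjusted p = 0.0630 by limma). Mlxipl, the carbohydrate response factor that pairs with Mlx, had values of 119.8, 135 and 143 in the normal livers and 60.8, 80.6 and 76.8 in the tumors. It fell by 0.87 (adjusted p = 0.00721), but its second probe gave 0.04 (adjusted p = 0.836), so the probes of Mlxipl disagree, and the call was lost with spike-in scaling (-0.72). The probes of Usf2, an E-box factor outside the Max dimers, were called in opposite directions, at 0.93 (adjusted p = 0.0127) and -0.72 (adjusted p = 0.00563). Mga, a large Max-binding protein, gave -0.46 and Usf1 0.06, and neither passed the test.

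Of 18 regulators of Myc stability and level, 14 were tested, with 3 higher and 1 lower, 28.6% called against 34.2% of all genes tested, and with 2 higher and 0 lower without normal liver 2. Aurka, the mitotic kinase that shields Mycn protein from degradation and is also a general marker of dividing cells, had values of 0.206, 0.299 and 0.264 in the normal livers and 2.32, 2.99 and 1.94 in the tumors. All tumors were far above the normal livers, and Aurka rose by a log2 fold change of 3.23 (standard error 0.21, adjusted p = 0.000285 by limma), or by 2.10 after normexp correction. Fbxw7, the ubiquitin ligase subunit that targets Myc proteins, had values of 1.29, 1.33 and 1.15 in the normal livers and 2.90, 2.92 and 1.75 in the tumors and rose by 0.97 (adjusted p = 0.0179). The call for Fbxw7 was lost without any 1 of the normal livers or without tumor 2 (adjusted p from 0.0506 without normal liver 2 to 0.0581 without normal liver 3). It was also lost with no filter on dim probes (adjusted p = 0.0607 by limma). A second probe of Fbxw7 gave 0.68 (adjusted p = 0.0306). Bin1, an adaptor that binds and restrains Myc, rose by 0.91 (adjusted p = 0.00322), from 4.82, 4.29 and 5.05 to 8.75, 9.61 and 8.30. Trpc4ap, which marks Myc for degradation, fell by 0.55 (adjusted p = 0.0128), from 90.9, 103 and 95.5 to 62.8, 64.2 and 70.9. It was -0.35 with quantile normalization, and the call was lost with spike-in scaling (-0.39) and without normal liver 2 (-0.50). With no filter on dim probes the call for Trpc4ap was also lost (adjusted p = 0.0665 by limma). Pvt1, the noncoding neighbor of Myc, gave -0.39 (adjusted p = 0.0571). It passed when probes had to be well above background on all 6 arrays (adjusted p = 0.0489 by limma). A second probe of Pvt1 gave -0.22 (adjusted p = 0.369). The kinases Pim1, Pim2 and Gsk3b, the ligase Huwe1, the ubiquitin proteases Usp28 and Usp36, and the RNA-binding proteins Hnrnpk and Pcbp2 did not pass either.

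All 12 coactivators of Myc, proteins of histone acetylation and chromatin remodeling, were tested by limma, with 0 higher and 1 lower, or 0 and 3 at an unadjusted p under 0.05. The share called was 8.33%, against 34.2% of all genes tested. Actl6a, an actin-like subunit of such complexes, fell by 0.66 (adjusted p = 0.0178), from 2.95, 3.02 and 2.65 to 1.53, 1.89 and 2.09. Its call was lost without normal liver 1 or 2, with spike-in scaling and with no filter on dim probes (adjusted p = 0.0712 for the last). Of 10 corepressors used by Mxd proteins and Mnt, 8 were tested, with 1 higher and 1 lower, 12.5% each against 13.1% and 21.0% of all genes tested. Rbbp7 and Rbbp4, related histone-binding proteins of the Sin3 complex, went in opposite directions. Rbbp7 had values of 20.4, 23.6 and 22.9 in the normal livers and 34.8, 39.8 and 36.5 in the tumors, a rise of 0.73 (adjusted p = 0.00577). Rbbp4 had values of 37.6, 35.5 and 44.3 in the normal livers and 18.3, 20.4 and 24.9 in the tumors and fell by 0.89 (adjusted p = 0.00828). The groups were apart for both, and the second probe of each was called in the same direction, at 0.77 for Rbbp7 and -1.20 for Rbbp4.

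The Myc target genes, 81 in 4 lists, were called in both directions. Of the 77 tested, 9 were higher and 11 lower, 11.7% and 14.3%, against 13.1% and 21.0% of all genes tested. Their median log2 fold change was -0.10, beside -0.13 over all genes. Scaling to the spike-in controls moved all fold changes up by 0.15. On that scale 10 targets were higher and 3 lower, and of all probes 3013 were higher and 2044 lower in place of 3108 and 5124. Without normal liver 3, and likewise without tumor 2, 8 targets were higher and 5 lower. An E-box was in 20.7% of the 87 promoter windows found for these genes, against 7.15% of all windows. The genes were listed as Myc targets, so nothing is read from this difference.

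Of the targets of the nucleolus and ribosome assembly, the class most often tied to Myc, 0 of 30 were called higher by limma and 7 lower, or 0 and 10 at an unadjusted p under 0.05, with a median of -0.28. The 7 are 23.3%, near the 21.0% of all genes tested that were lower. Rrs1, a ribosome assembly factor, had values of 2.55, 2.23 and 3.25 in the normal livers and 1.52, 1.13 and 1.53 in the tumors and fell by 0.94 (adjusted p = 0.0134). Nop16, a nucleolar protein, had values of 4.77, 4.95 and 5.24 in the normal livers and 2.34, 2.84 and 3.21 in the tumors and fell by 0.85 (adjusted p = 0.00722), a call lost with spike-in scaling (-0.69). Normal liver 3 had the highest value of the 6 arrays for 29 of the 30 genes. Nop2, a ribosomal RNA methyltransferase chosen after its values were seen, read 9.79, 10.5 and 20.1 in the normal livers and 12, 8.85 and 9.26 in the tumors, with the tumors close to the first 2 normal livers. The count of genes called lower was 4 without any 1 of the normal livers or without tumor 1 or 3, and 3 without tumor 2. With spike-in scaling it was 1.

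Normal liver 3 was also the highest array for all 10 markers of Kupffer cells and macrophages, of which none was at background on all arrays. Their summed expression values were 141, 111 and 190.2 in the normal livers and 95, 57.8 and 62.4 in the tumors, and the brightest probe was that of Csf1r, the receptor that macrophages need to survive. Of these markers 7 were lower in the tumors, 70% against 21.0% of all genes tested. That count was 3 without tumor 2, 10 without tumor 1 and 4 without normal liver 1 or 3 or tumor 3, and 4 with spike-in scaling. The part of these cells in the result for the nucleolar genes was not tested.

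**Figure D3:**
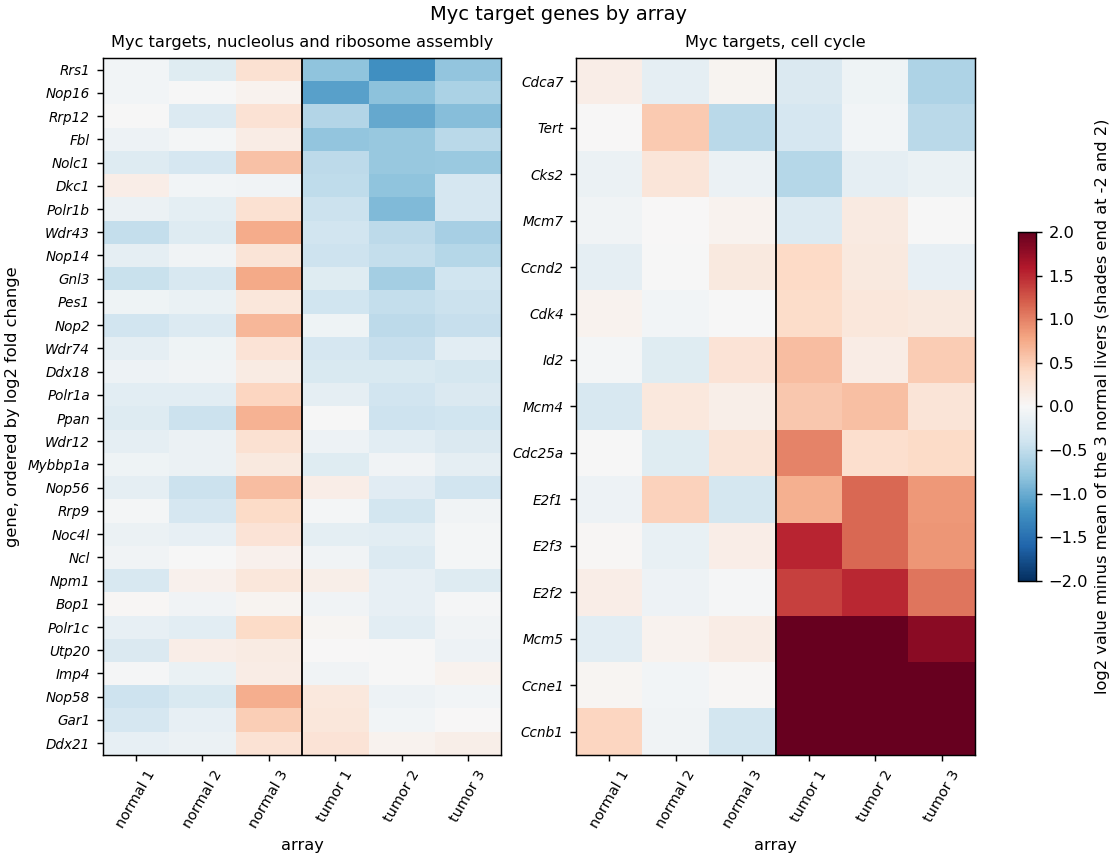
Nucleolar and cell cycle Myc targets by array, shaded by the log2 value minus the mean of the 3 normal livers, with shades ending at -2 and 2. Normal liver 3 is the highest array for 29 of the 30 nucleolar genes, and the 6 called cell cycle genes are higher in all tumors.

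Targets of nucleotide and polyamine synthesis had 2 of 20 higher and 4 lower, 10% and 20%, near the 13.1% and 21.0% of all genes tested. Mthfd1l, a mitochondrial enzyme of folate metabolism, had values of 0.0809, 0.136 and 0.141 in the normal livers and 2.32, 1.36 and 2.02 in the tumors. Of the normal livers 1 was well above background, and Mthfd1l rose by a log2 fold change of 4.0 (standard error 0.29, adjusted p = 0.000397 by limma), or by 1.97 after normexp correction. Impdh1, an enzyme of guanine nucleotide synthesis, rose by 1.29 (adjusted p = 0.00110), from 0.592, 0.542 and 0.657 to 1.56, 1.36 and 1.43, and by 0.85 after normexp correction. Shmt2, the mitochondrial serine hydroxymethyltransferase, fell by 1.03 (adjusted p = 0.00747), from 31.3, 37.8 and 32.9 to 13.3, 17.3 and 20.0. Mthfd1l and Shmt2, enzymes of the same mitochondrial folate pathway, were thus called in opposite directions. Paics, an enzyme of purine synthesis, fell by 1.02 (adjusted p = 0.0182), from 15.8, 18.9 and 19.7 to 6.38, 9.57 and 11.5. Its call was lost without normal liver 2 or 3 and with no filter on dim probes (adjusted p = 0.0604 for the last). The genes called lower numbered 1 without normal liver 2 or 3 and 2 without tumor 1 or 2.

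Targets of glycolysis and transport had a median of 0.16 over 12 genes tested.

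Cell cycle targets had 6 of 15 genes higher and none lower by limma, 40% against 13.1% of all genes called higher, with a median of 0.47 (8 higher and 0 lower at an unadjusted p under 0.05). With only probes well above background on all 6 arrays, 14 were tested, with 5 higher and 0 lower. Ccnb1, the mitotic cyclin B1, had values of 0.0769, 0.0545 and 0.0442 in the normal livers and 2.04, 2.06 and 1.16 in the tumors. No normal liver was well above background, and the tumors exceeded them at least 13-fold for Ccnb1 (fitted adjusted p = 0.000222). After normexp correction the log2 fold change of Ccnb1 was 1.95, against 4.89 as fitted without it. The value of 1.95 is a smaller fold than the bound, so the size depends on how background is handled. Ccne1, cyclin E1 of the entry into S phase, rose by 4.23 (adjusted p = 0.000194), from 0.346, 0.323 and 0.341 to 8.57, 6.79 and 4.34. Mcm5, a subunit of the replicative helicase, rose by 2.13 (adjusted p = 0.000816), from 0.225, 0.272 and 0.289 to 1.16, 1.40 and 0.913, or by 1.14 after normexp correction. For Ccnb1, Ccne1 and Mcm5 the tumors lay far above the normal livers, with tumor 3 the lowest tumor.

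Markers of proliferation were examined beside these genes, and Ccnb1 is in both lists. Of 20 such markers 15 were tested and 13 were higher, 86.7% against 13.1% of all genes tested, with a median of 3.51, or 2.60 with genes at background in the normal livers set to their bound. When probes had to be well above background on all 6 arrays, 6 were tested and 5 were higher. Markers dim in the normal livers, Ccnb1 among them, passed the filter on dim probes through the tumors. Nothing is therefore read from the count of 13 against the share of all genes. The summed expression values of the markers were 14, 16 and 15.1 in the normal livers and 52.3, 50.8 and 38 in the tumors. The brightest probe, that of Pcna, the sliding clamp of replication, did not pass the test, and Aurkb and Cenpf were not above background on any array. The part of dividing cells in the higher Mycn, Mycl and Mxd3 values was not tested.

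Genes that Myc represses together with Miz1, many of them inhibitors of cyclin-dependent kinases, were called higher in 7 of 12 cases and lower in 1, 58.3% and 8.33% against 13.1% and 21.0% of all genes tested, with a median of 0.68. With no filter on dim probes 4 were higher. Cdkn2b, the kinase inhibitor p15, had values of 0.188, 0.240 and 0.143 in the normal livers and 24.2, 19 and 16.3 in the tumors, a rise of 6.72 (adjusted p = 3.32e-05). Hes1, a repressor downstream of Notch, rose by 2.73 (adjusted p = 0.00121), from 0.223, 0.451 and 0.278 to 2.31, 1.78 and 1.97, and by 1.72 after normexp correction. Cdkn1a, the kinase inhibitor p21, rose by 2.35 (adjusted p = 0.00362), from 1.92, 1.35 and 1.01 to 7.95, 9.11 and 4.78. Ndrg2, a gene of differentiated liver, fell by 2.17 (adjusted p = 0.00589), from 187, 196 and 191 to 24.9, 44.5 and 68.8. All 4 genes had the tumors wholly on one side of the normal livers.

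Targets of Mlx with Mlxip or Mlxipl, genes of sugar and fat metabolism, had 4 of 16 higher and 4 lower, 25% each against 13.1% and 21.0% of all genes tested, with a median of 0.29. Pnpla3, a lipid droplet protein, rose by 3.20 (adjusted p = 0.00667), from 0.293, 0.119 and 0.152 to 3.33, 0.946 and 1.31, and by 1.65 after normexp correction. Fasn and Acly, enzymes of fatty acid synthesis, rose by 1.23 (adjusted p = 0.00404) and 1.21 (adjusted p = 0.00395). Values of Fasn went from 2.90, 3.75 and 2.77 to 7.37, 6.23 and 8.40, and those of Acly from 76.8, 75.1 and 56.3 to 139, 162 and 178. G6pc, the phosphatase that releases glucose from the liver, fell by 2.32 (adjusted p = 0.00704), from 106, 213 and 112 to 18.7, 44 and 24.4. Khk, the fructose kinase, fell by 0.88 (adjusted p = 0.0222), from 268, 319 and 277 to 115, 170.4 and 194. The call for Khk was lost without any 1 of the normal livers, with spike-in scaling and with no filter on dim probes (adjusted p = 0.0729 for the last). A second probe of Khk gave -0.51 (adjusted p = 0.0518). The genes called lower numbered 2 without any 1 of the normal livers and 1 with spike-in scaling.

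**Figure D4:**
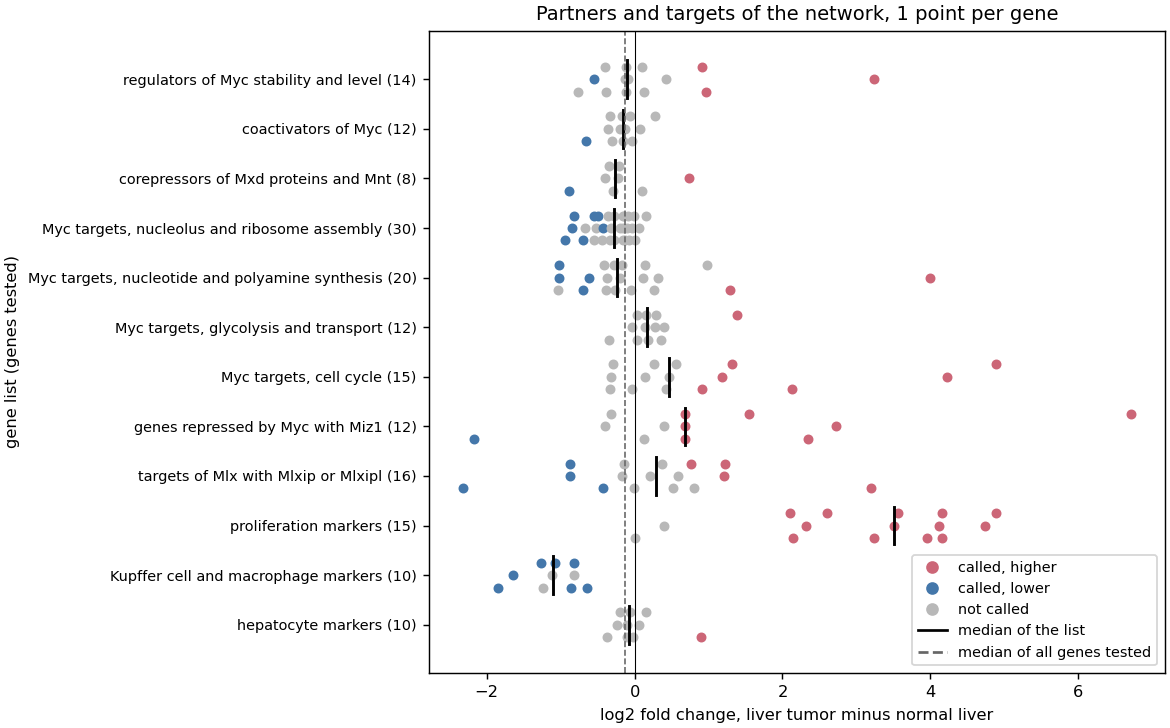
Log2 fold change (tumor minus normal liver) of each tested gene by list, colored where called, with a bar at the median of each list and a dashed line at the median of all genes tested. Nucleolar targets have a median of -0.28, Miz1-repressed genes of 0.68 and proliferation markers of 3.51.

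The genes most like Myc over the 6 arrays were sought by Pearson's r of log2 values among 16469 genes well above background on all arrays. They were 3 unnamed transcripts of the array design with r of 0.984 to 0.994, Carmil2, a regulator of the actin cytoskeleton, at 0.982, and the predicted gene Gm6713 at 0.980. Of the genes compared, 100 had r above 0.9. The 6 points share the same slides, and normal liver 1 holds the high value of Myc among them, so these values are a description.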

How the data were processed

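RNA of 3 normal livers and 3 liver tumors was hybridised to Agilent SurePrint G3 Mouse arrays in 1 color. The deposited intensity values are Feature Extraction output, background-subtracted and not normalized between arrays. The Feature Extraction version was 10.7.3.1 per the file headers and 12.0.3.1 in the submitters' processing notes. The authors also deposited a table of ratios to the 75th percentile of each array, used as an alternative.

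Outlier and control spots were left out, duplicate spots averaged, and log2 processed signals scaled to the 75th percentile. Probes that every array of at least 1 group measured well above background were tested with limma 3.58.1 in R 4.3.3 (lmFit, eBayes, Benjamini-Hochberg adjustment over all 24879 probes), and a gene was read from its brightest tested probe. Current symbols came from RefSeq by accession (27235 probes), symbol (3581) or synonym (565), and 24300 kept the name of the file. The linear models replaced the paired t-test of the study's methods, which was an alternative, beside an unpaired form and a Benjamini-Hochberg adjustment that the methods do not state. Alternatives were another background correction, normalization, scaling, filter, moderation, probe choice and block, and leaving out each array. The scripts were tested on simulated data. Depth is limited by the 6 arrays and by signal over background.

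The members and lists were chosen with earlier results of these data known. Beside the members, up to 3 called genes with the largest rise and 2 with the largest fall were named per list, any gene of the other network proteins and regulators, the brightest and absent markers of cell lists, and the 5 genes most correlated with Myc. Nop2 and the genes of immediate early response were chosen after their values were seen. Results for some listed genes are not reported here.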

Additional observations from a re-analysis of the deposited data

How the results depend on the processing

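Of 141 values of the members under alternative settings, 131 kept their direction and their side of the threshold, 4 reversed, 3 newly passed it (Mxd1) and 3 no longer did (Mxd4). Over all probes, 8232 were called, against 5057 with spike-in scaling (3013 higher and 2044 lower), 4674 with no filter on dim probes, 5257 by an unpaired form of the t-test of the methods with Benjamini-Hochberg adjustment, neither of which the methods state, 2036 by the methods' limits (mean ratio of 2 and level of 1) with an unpaired t-test and 4967 to 7112 with 1 array left out, fewest without normal liver 2. The methods' paired t-test, with the replicate numbers taken as pairs, called 7413 probes at their unadjusted p under 0.05 and 0 after an adjustment added here. Of the members, 4 were called, against 2 (Mxd1 higher, Mxd4 lower) when probes had to be well above background on all 6 arrays, 1 by those limits (Mycn), 0 by the paired t-test after adjustment (3 unadjusted), and 3 to 4 with 1 array left out. Of the Myc targets, 20 were called, against 13 with spike-in scaling, 12 with no filter and 13 to 17 with 1 array left out. Scaled to the spike-in controls, the log2 fold change became 0.0434 for Max, 0.0276 for Mlx, 0.0191 for Hnrnpk, 0.0328 for Huwe1, 0.0409 for Pcbp2 and 0.0687 for Pim2. Quantile normalization gave 0.0248 for Pcbp2 and 0.0161 for Pim2, and normexp -0.00250 for Usf1. With 1 array left out, Myc ranged from -0.725 to 0.101 (without normal liver 3 and 1), Max from -0.224 to 0.0631 (without normal liver 2 and 3), Usf1 from -0.0683 to 0.212 (without tumor 3 and 2) and Pim2 from -0.282 to 0.191 (without tumor 1 and 3). Fewer samples were used where an array was left out, and more probes were tested without a filter. Apart from these, the cause was not tested.

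The labels do not say what the replicate numbers share, and the numbers were not taken as pairs. Deviations from the group means correlated at 0.0686, 0.132 and 0.0509 for numbers 1, 2 and 3. Tumors 1 and 2 correlated best with the normal liver of their number, and tumor 3 with normal liver 2 (0.0545). With the number as a block, 7015 probes, 4 members (3 higher, 1 lower) and 20 Myc targets (10 higher, 10 lower) were called.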

Other observations

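Immediate early genes are those that growth signals induce without new protein synthesis, as they do Myc. The list of 30 was made after their values had been seen, so the counts are a description. Of the 28 tested by limma, 16 were higher, 1 was lower, Klf2, and 11 were not called, Fosb, Dusp1, Mcl1, Ccn1 and Rhob among them. The median log2 fold change was 1.04. Over the 24 well above background on all 6 arrays the median was 0.87. Of all genes tested, 13.1% were higher and 21.0% lower. Fos, Junb, Egr2 and Ier3 passed the filter on dim probes through the tumors, and the list was chosen by its values. Nothing is therefore read from the counts against these shares. Egr1, a zinc finger factor of the growth response, had values of 0.555, 1.17 and 2.10 in the normal livers and 36.4, 40.5 and 14.1 in the tumors. The tumors lay far above, and Egr1 rose by 4.63 (adjusted p = 0.00289). Btg2, an antiproliferative gene, rose by 4.17 (adjusted p = 0.000216). Fos, a partner in the AP-1 dimer, was at background in all 3 normal livers, and the tumors exceeded them at least 3.68-fold.

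Markers of stellate cells and fibroblasts had summed values of 86, 87.2 and 105 in the normal livers and 26.4, 38.9 and 46.9 in the tumors. The change in the sum lay in the brightest probe, that of Dcn, decorin, with a mean of 83.2 in the normal livers and 27.8 in the tumors. Of these markers 2 of 8 tested were higher and 4 lower, 25% and 50% against 13.1% and 21.0% of all genes tested. Without normal liver 1 the counts were 1 higher and 3 lower. Markers of T and B lymphocytes summed to 69.4, 65.5 and 65.5 in the normal livers and 244, 191 and 141 in the tumors. The probe of Cd4 was the brightest, and Cd8a was not above background on any array. The change in the sum lay in the probe of Cd4, with a mean of 59.5 in the normal livers and 184.3 in the tumors. The mean sums were 66.8 and 191.9. Of 3 tested 1 was higher, Cd4, 33.3% against 13.1% of all genes tested. The count was 2 with spike-in scaling, with the replicate block, without a filter, with all 6 arrays above background or without normal liver 1. Of 8 endothelial markers tested 2 were lower, 25% against 21.0% of all genes tested. Without any 1 array other than normal liver 1 a single marker was lower, without normal liver 1 the counts were 1 higher and 2 lower, and with spike-in scaling 1 higher and 0 lower. The probe of Clec4g was the brightest of them, and the sums were 106, 111 and 121 in the normal livers and 82.7, 91.8 and 86.2 in the tumors. Cholangiocyte markers summed to 2.70, 3.38 and 2.62 in the normal livers and 2.27, 2.30 and 2.51 in the tumors, with the probe of Spp1 the brightest, Muc1 at background on every array and 0 of 5 called by limma (0 at an unadjusted p under 0.05), though 1 was lower without tumor 1 and 1 without tumor 3. Neutrophil markers summed to 159, 167 and 146 in the normal livers and 173, 180.2 and 129.6 in the tumors, with the probe of Csf3r the brightest, Mpo at background on every array and 0 of 4 called (1 at an unadjusted p under 0.05). The hepatocyte markers had 1 of 10 called higher, 10% against 13.1% of all genes tested, and 2 with quantile normalization. The 1 called was Apoa1, the main protein of high-density lipoprotein, which rose by 0.90 (adjusted p = 0.00564).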
